A study of Mus musculus with 63 samples.

Results

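The tumours described here are the 8 undivided mouse small-intestinal tumours with the most and the 8 with the least RNA of Muc2, the gene of the gel-forming mucin of goblet cells, among 23 undivided tumours in a series of 63 libraries. They were chosen by the measured value: tumours whose title carries no clone letter were ranked by log2(Muc2 + 1) and the ends of the ranking were taken. The other 40 libraries are clones a and b of 20 divided tumours, which the ranking did not use. Each library is bulk RNA sequencing of tumour tissue, given as normalised counts.

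All tumours came from 2 mice on the C57BL/6 background that carried Villin-creERT2, 1 floxed Apc allele (Apc fl/+) and the R26R-Confetti colour reporter. Both mice received 4 mg tamoxifen, which removes 1 copy of Apc and switches on the reporter in Villin-expressing epithelium, and 200 mg/kg of the mutagen N-ethyl-N-nitrosourea (ENU) 10 days later. Mouse dwba2.2d was female and mouse dwaj1.3a male, so mouse and sex cannot be told apart, and tumours of 1 mouse share the animal. The mice were at least 8 weeks old at treatment. The Muc2-rich group held 3 tumours of the female and 5 of the male mouse, from the small-intestinal segments labelled SI10 (2 tumours) and SI20 (6 tumours). The Muc2-poor group held 4 tumours of each mouse, 6 from SI10 and 2 from SI20. The series holds no untreated or normal tissue among the libraries used here, so the comparison is between tumours only. With 2 animals, p-values measure the spread between tumours rather than between mice.

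Goblet cells are secretory epithelial cells that fill their apical side with mucin granules. Atoh1 commits a crypt progenitor to the secretory fate where Notch signalling is low, and Spdef, Gfi1 and Creb3l1 act later in goblet cell maturation. The Muc2 protein is folded and joined into dimers in the endoplasmic reticulum with the help of Agr2, receives dense O-linked sugars in the Golgi, and is released with partner proteins such as Fcgbp, Clca1, Zg16 and Tff3 to form mucus. In the intestine, loss of Apc activates WNT signalling and favours stem-like and Paneth-like states, and adenomas can keep a varying share of goblet cells.

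Muc2 (ENSMUSG00000025515) lies on chr7:141276583-141308430, plus strand, in the Gencode M39 annotation of GRCm39. In the Muc2-rich tumours it ranged from 13118 to 30379 normalised counts, with a median of 15453. In the Muc2-poor tumours it ranged from 2662 to 6581, with a median of 4070. These values chose the groups and carry no test. The tumours just inside and just outside the upper limit stood close together, at 13118 and 12698, and those at the lower limit at 6581 and 7315. The 7 tumours between the groups had a median of 8815. Among the Muc2-rich tumours dwba2.2d 9 stood apart at 30379, and the next was at 15799. Over all 23 tumours the median was 13118 in SI20 (11 tumours) and 6948 in SI10 (12 tumours), and it was 12645 in the male (13 tumours) and 8089 in the female mouse (10 tumours). In the 16 tumours an association of segment and group did not pass Fisher's exact test (two-sided, p = 0.132), nor did one of mouse and group (p = 1). As 6 of 8 Muc2-rich and 2 of 8 Muc2-poor tumours were from SI20, medians are also given with the segment as a covariate.

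**Figure D1:**
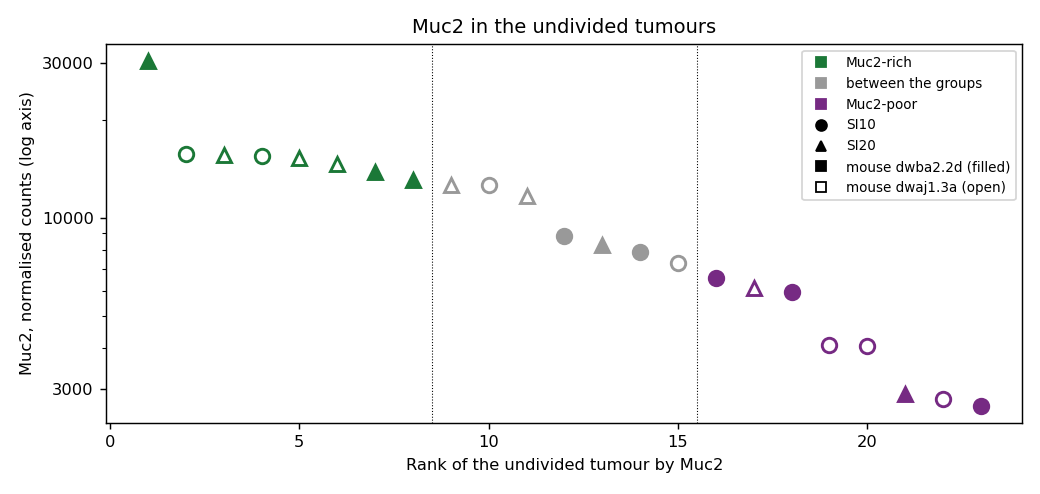
Muc2 in the 23 undivided tumours, in normalised counts on a log axis, against the rank of each tumour. Green points are the 8 Muc2-rich, purple the 8 Muc2-poor and grey the 7 tumours between; triangles are SI20, circles SI10, filled points the female and open points the male mouse. A single tumour at 30379 leads, 6 of the 8 green points are triangles, and the dotted limits fall where neighbouring values are close.

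Sequencing depth, as estimated from the lowest step between values of a library, ranged from 19612700 to 40031200 reads in the 16 tumours, against 13118800 to 52060000 over the series. For none of 6 library measures did a difference between the groups pass (exact permutation test within mouse, two-sided, adjusted p from 0.394 to 0.906). The share of Rn18s, the 18S ribosomal RNA that library preparation aims to remove, had a median of 1.86% in the Muc2-rich and 7.15% in the Muc2-poor tumours (p = 0.197), with ranges that overlapped. The share of mitochondrial transcripts was 3.47% and 2.90% (p = 0.135). All 23 tumours had Epcam and Cdh1, which mark epithelium, at or above 11999 normalised counts, and Muc2 and the other goblet markers above 0. Markers of other cell types were present in both groups: the summed level of 4 fibroblast markers ran from 996 to 9004 (median 3707) in the Muc2-rich and from 373 to 8882 (median 1715) in the Muc2-poor tumours, and that of 3 T cell markers from 72.4 to 939.9 (median 211) and from 138 to 589 (median 367). A pair of Muc2-rich libraries each stood apart from the other 7 of the group in several of the genes below. In dwba2.2d 10 these were mainly secretory and enterocyte genes and in dwaj1.3a 5 mainly Chga, Avil, Top2a, Gzma and the mitochondrial share. Medians without both are therefore given for many of the gene lists below. Among the other lists, the medians of smooth muscle (0.10), oxidative phosphorylation (-0.0058), interferon response (-0.14) and replication genes (-0.00017) changed sign without both. That of MAPK output genes was 0.56. In bulk tissue, fewer cells of a type and less RNA per cell cannot be told apart.

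Of 16477 genes tested between the groups, 0 were called higher and 0 lower in the Muc2-rich tumours (limma on log2(normalised count + 1) with mouse as covariate, Benjamini-Hochberg adjusted p under 0.05; 0% and 0% of genes). The smallest adjusted p was 0.327. At an unadjusted p under 0.05, 1329 genes were higher and 741 lower, or 8.07% and 4.5% of the genes tested. The groups did not overlap for 4 genes, which were named after their values were seen: Paqr4 and Mfsd2b lay above in every Muc2-rich tumour, and Myo9a, an unconventional myosin, and 4933406P04Rik lay below (0.0121% of genes in each direction). Paqr4 lay between 2424 and 3797 normalised counts (median 3022) in the Muc2-rich and between 1399 and 2380.0 (median 1951) in the Muc2-poor tumours, and its log2 fold change was 0.69 ± 0.14 (SE, 8 tumours against 8, limma adjusted p = 0.327). Myo9a lay between 51.4 and 115 normalised counts (median 87.4) in the Muc2-rich and between 119 and 254 (median 173) in the Muc2-poor tumours, a log2 fold change of -0.98 ± 0.19. Mfsd2b reached only 46 normalised counts at most. Log2 fold changes throughout are Muc2-rich minus Muc2-poor, with standard errors from that fit, and no gene is called from this comparison.

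A slope on log2 Muc2 over all 23 undivided tumours, which includes the same 16 tumours and so is not separate evidence, called 118 of 16510 genes as rising with Muc2 and 18 as falling (0.715% and 0.109%, limma with mouse as covariate, adjusted p under 0.05). A slope of 1 means that a gene doubled where Muc2 doubled. Below, "rose" and "fell" refer to genes that passed in this fit, unless the clones are named. These counts hung on single tumours. Without dwba2.2d 1, 9 or 6 the rising genes were 14, 16 and 22. They were 39, 48, 50, 53 and 58 without dwaj1.3a 15, 10, 4 or 7 or dwba2.2d 8, and 62, 75 and 78 without dwba2.2d 7 or dwaj1.3a 9 or 2. Without dwba2.2d 10, dwaj1.3a 6 or dwaj1.3a 18 they were 229, 234 and 691. Of the 23 libraries dwaj1.3a 18 had the fewest estimated reads (14700600) and the fewest genes above 0 (18544). It also had the largest share of Rn18s (19.3%), and the part of these measures in the count was not tested. The falling genes were 1 without any of dwba2.2d 9, 1 or 6 or dwaj1.3a 15 or 4, between 3 and 11 without dwaj1.3a 7, 10, 9, 2, 17 or 5 or dwba2.2d 8 or 7, and 49, 62 and 223 without dwba2.2d 10, dwaj1.3a 6 and dwaj1.3a 18. With both dwba2.2d 10 and dwaj1.3a 5 left out, 234 rose and 51 fell. With the segment added as a covariate 235 rose, 98 of them among the 118, and 53 fell. Genes named from this fit and from the clones were named after their values were seen, apart from those of the naming rule.

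The goblet cell list leaned to the Muc2-rich tumours. Of its 32 tested members, Muc2 aside, 27 had a positive log2 fold change and 16 passed an unadjusted p under 0.05, all of them higher. Over all genes tested 49.8% had a positive log2 fold change, and 8.07% were higher and 4.5% lower at an unadjusted p under 0.05. Counts of this and the following lists are to be read beside these shares. The median log2 fold change of the goblet list was 0.64, against a median near 0 (-0.0016) over all genes, and it was 0.63 with the segment as a covariate and 0.70 without both libraries that stood apart. In the slope fit 6 members rose: Spink4, Klk1, Slc12a8, Fcgbp, Guca2a and Tpsg1 (the last in 14 of 34 alternatives). None fell.

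Spink4, a small protease inhibitor secreted by goblet cells, lay between 4857 and 18194 normalised counts (median 9521) in the Muc2-rich and between 794 and 8782 (median 2473) in the Muc2-poor tumours. The ranges overlapped, but 4 of 8 Muc2-rich tumours exceeded every Muc2-poor one. Its slope was 0.88 ± 0.15 (limma adjusted p = 0.00750). Klk1, tissue kallikrein, lay between 1031 and 2477 normalised counts (median 1897) in the Muc2-rich and between 222 and 1441 (median 553) in the Muc2-poor tumours, and 7 Muc2-poor tumours were below the lowest Muc2-rich one. It rose with a slope of 0.77 ± 0.14 (limma adjusted p = 0.0109). Fcgbp (ENSMUSG00000047730, chr7:27770661-27820287), a large mucus protein that binds Muc2, lay between 43933 and 180355 normalised counts (median 74502) in the Muc2-rich and between 24659 and 61158 (median 46574) in the Muc2-poor tumours. In all, 7 of the 8 Muc2-rich tumours were above all Muc2-poor ones, and only dwba2.2d 10 was within their range. Fcgbp rose with a slope of 0.45 ± 0.09 (limma adjusted p = 0.0177). The annotation places a related gene, Fcgbpl1, beside it, so reads may be split between the pair. Slc12a8, a solute carrier, rose with a slope of 0.37 ± 0.07 (limma adjusted p = 0.0136), and Guca2a, the hormone guanylin, with 1.05 ± 0.24 (limma adjusted p = 0.0396), which held in 22 of 34 alternatives. The call of Spink4 held without any single tumour. Those of Fcgbp and Slc12a8 were lost without dwba2.2d 9, 6 or 1, and that of Klk1 without dwba2.2d 9 or 6, with adjusted p from 0.0503 to 0.0919.

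The classical partners of Muc2 followed it unevenly. Agr2, the disulphide isomerase that folds Muc2, lay between 4099 and 40022 normalised counts (median 12983) in the Muc2-rich and between 1511 and 15286 (median 2764) in the Muc2-poor tumours, with a log2 fold change of 1.76 ± 0.53 and a slope of 0.83 ± 0.22 that did not pass (limma adjusted p = 0.0700). Tff3, a trefoil peptide, lay between 6693 and 26583 normalised counts (median 17696) in the Muc2-rich and between 2895 and 17108 (median 11409) in the Muc2-poor tumours, a log2 fold change of 0.71 ± 0.27. Among Muc2-rich tumours Tff3 was lowest, at 6693, in dwba2.2d 10, where Muc2 was 13877. Zg16, a lectin of the mucus, lay between 18882 and 110127 normalised counts (median 60033) in the Muc2-rich and between 9449 and 74601 (median 49595) in the Muc2-poor tumours, and the groups overlapped almost fully. Clca1, a protease of the mucus, had the lower median in the Muc2-rich group: it lay between 1536 and 25871 normalised counts (median 5823) in the Muc2-rich and between 2500.4 and 14251 (median 8884) in the Muc2-poor tumours, with a log2 fold change of -0.23 ± 0.38. That sign turned positive in 4 of 35 alternative fits. Pearson's r of log2 values over the 23 tumours was taken after the mean of each mouse was removed. With Muc2 it was 0.78 for Spink4, 0.75 for Fcgbp, 0.62 for Agr2, 0.61 for Tff3, 0.45 for Zg16 and -0.05 for Clca1. These values describe tumours that share 2 mice and a common scaling. On the same measure, among the partners themselves, Tff3 and Zg16 ran together (r = 0.96), as did Agr2 and Spink4 (r = 0.85), whereas Clca1 and Agr2 did not (r = -0.18). Muc13, a membrane mucin of the epithelium at large, lay between 36458 and 101059 normalised counts (median 55318) in the Muc2-rich and between 32154 and 63126 (median 47971) in the Muc2-poor tumours.

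**Figure D2:**
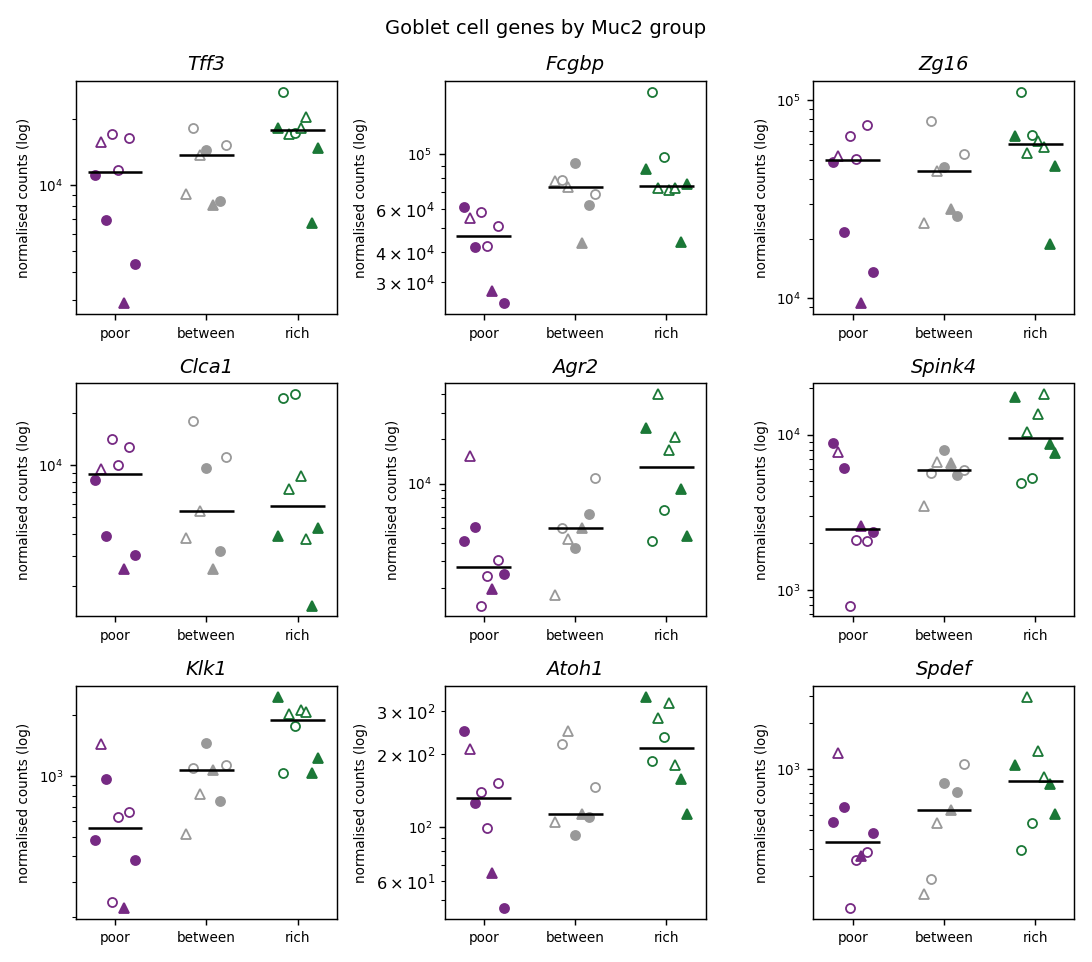
Goblet cell products and their regulators in the undivided tumours, in normalised counts on log axes, by Muc2 group; bars are medians, triangles SI20, circles SI10, filled points the female and open points the male mouse. Fcgbp, Spink4, Klk1 and Agr2 have higher medians in the Muc2-rich group, whereas Zg16 overlaps almost fully and Clca1 has the lower median there.

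Ranking the same 23 tumours by the mean log2 level of Tff3, Fcgbp, Clca1, Zg16, Agr2 and Spink4 instead kept 6 of the 8 Muc2-rich and 5 of the 8 Muc2-poor tumours at their end, and 2 tumours changed ends (dwba2.2d 10 and dwaj1.3a 6). This second ranking, which uses other measured values, called 1581 genes higher and 947 lower (limma, adjusted p under 0.05). The 6 ranking genes were not left out of the genes tested, so these counts can include them. For those 6 genes a call is no result, as their values chose the groups. The result of the comparison therefore differed with the goblet genes used to rank the tumours.

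The start regions of the goblet and glycosylation genes that rose were read for 2 forms of the E-box, CAGCTG and CAGATG, which basic helix-loop-helix factors, the protein family of Atoh1, can bind. No gene was called between the groups, so the genes that rose over 23 tumours were used. Of 32851 RefSeq promoter windows (GRCm38.p6, the 250 bases before a start, both strands), 13% held CAGCTG, 14.4% CAGATG and 25.5% either. Of the 9 genes, Spink4 had no window in the table. Of the other 8, 6 held either form in at least 1 window, and Tpsg1 and Galnt6 in none, while Muc2 held 1 match and Atoh1 none. The stretches below surround the matches in Muc2 and in the 4 of these 6 genes with the smallest adjusted p in that fit, with each match in capitals (CATCTG is CAGATG on the other strand), each given 5′ to 3′ on the plus strand of GRCm38.p6. Such a match is a description of the letters only. The shares above are per window, whereas a gene was counted if any of its windows held a match. Slc12a8 held one in 1 of 3 windows and Gcnt4 in 1 of 2, so the counts of genes and the shares are not on the same unit.
Muc2, chr7:141690216-141690245: atggagcccccaCAGCTGttttcctgataa
Fcgbp, chr7:28071016-28071045: gggtgtagccacCAGCTGctctcacaccca
Klk1, chr7:44225151-44225180: ccctgaccttgcCATCTGccttaggtcacc
Slc12a8, chr16:33517984-33518013: ttaagggctaggCAGCTGagcagtcagcct
Slc12a8, chr16:33518142-33518171: gggaggagtcccCAGATGgggccaacaagg
B3gnt5, chr16:19759985-19760014: tacttgctccttCAGCTGatgtctacacta

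The list of mucin O-glycosylation and sulphation genes showed the same lean. Of 32 tested members of the O-glycosylation list 29 had a positive log2 fold change, 16 of them at an unadjusted p under 0.05, with a median of 0.44 (0.37 with the segment, 0.52 without both libraries that stood apart). B3gnt5, Gcnt4 and Galnt6 rose and none fell. B3gnt5 is an N-acetylglucosaminyltransferase placed in that list, and whether it acts on mucins was not tested. It was a low gene that lay between 21.1 and 139 normalised counts (median 76) in the Muc2-rich and between 9.08 and 50.3 (median 16.1) in the Muc2-poor tumours. Its values in 7 of the 8 Muc2-rich tumours exceeded every Muc2-poor one, and the slope was 0.93 ± 0.15 (limma adjusted p = 0.00750), with a call that held under all 34 alternatives tried. Galnt6, which adds the first sugar of an O-glycan, lay between 4583 and 10568 normalised counts (median 9065) in the Muc2-rich and between 2726 and 8004 (median 4028) in the Muc2-poor tumours and rose with a slope of 0.47 ± 0.10 (limma adjusted p = 0.0323), a call that held in 26 of 34 alternatives. Gcnt4, which makes core 2 branches, lay between 761 and 2416 normalised counts (median 1614) in the Muc2-rich and between 417 and 1386 (median 795) in the Muc2-poor tumours, with a slope of 0.58 ± 0.12 (limma adjusted p = 0.0213), a call lost without dwba2.2d 1, 6 or 9 or dwaj1.3a 15 or 17. The most abundant members of the list did not pass: Papss2, which makes the sulphate donor, lay between 10068 and 99780.5 normalised counts (median 29195) in the Muc2-rich and between 22072 and 56111 (median 35150.4) in the Muc2-poor tumours, and St3gal4, a sialyltransferase, had a log2 fold change of 0.68 ± 0.33.

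Among secretory transcription factors 16 of 20 had a positive log2 fold change (median 0.30, 0.20 with the segment, 0.46 without both libraries that stood apart). Only Atoh1 rose. It lay between 114 and 345 normalised counts (median 212) in the Muc2-rich and between 46.4 and 249 (median 132) in the Muc2-poor tumours, with a slope of 0.49 ± 0.11 (limma adjusted p = 0.0417). The call was lost on leaving out any of 10 tumours (dwba2.2d 9, 1, 6 or 8 or dwaj1.3a 7, 10, 2, 9, 15 or 4), with adjusted p from 0.0518 to 0.206. Spdef, which drives goblet maturation, lay between 296 and 2996 normalised counts (median 843) in the Muc2-rich and between 123 and 1287 (median 336) in the Muc2-poor tumours, with a log2 fold change of 1.17 ± 0.48 and no call. Gfi1 was low, between 19.4 and 129 normalised counts (median 52) in the Muc2-rich and between 11.3 and 95.8 (median 26) in the Muc2-poor tumours. Creb3l1, a membrane-bound factor of the secretory pathway, had a log2 fold change of 0.87 ± 0.34, and Xbp1, of the unfolded protein response, 0.43 ± 0.18.

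The Notch list, which opposes the secretory fate in normal crypts, had fewer positive than negative members. Of 17 members 6 had a positive log2 fold change, with a median of -0.14 (-0.11 with the segment, -0.07 without both libraries that stood apart). Hes1, the main Notch target of the crypt, lay between 992 and 1545 normalised counts (median 1395) in the Muc2-rich and between 989 and 1742 (median 1455) in the Muc2-poor tumours, a log2 fold change of -0.04 ± 0.13. Mib1, a ligase that activates Notch ligands, had -0.26 ± 0.14. Lfng, a glycosyltransferase that tunes Notch receptors, lay between 391 and 938 normalised counts (median 718) in the Muc2-rich and between 427 and 1472 (median 1219.7) in the Muc2-poor tumours and fell with a slope of -0.38 ± 0.09 (limma adjusted p = 0.0462), a call that held in 14 of 34 alternatives.

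Folding and export genes of the endoplasmic reticulum were almost uniformly on the positive side: 48 of 50, with 21 at an unadjusted p under 0.05 and a small median of 0.29 (0.22 with the segment, 0.33 without both libraries that stood apart). Kdelr3, a receptor that returns escaped chaperones, lay between 451 and 1372 normalised counts (median 1059) in the Muc2-rich and between 109.9 and 719.5 (median 306) in the Muc2-poor tumours and rose with a slope of 0.77 ± 0.14 (limma adjusted p = 0.0127), a call lost only without dwba2.2d 6 (adjusted p = 0.0503). Sec24d, a coat subunit of export vesicles, rose with 0.47 ± 0.10 (limma adjusted p = 0.0393), in 22 of 34 alternatives. The chaperone Calr lay between 23964 and 36098 normalised counts (median 27866) in the Muc2-rich and between 16683 and 29835 (median 25626) in the Muc2-poor tumours, which is a log2 fold change of 0.28 ± 0.12, and Pdia3 had 0.17 ± 0.12.

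Some absorptive genes also rose with Muc2. Of 43 tested enterocyte genes 38 had a positive log2 fold change and 13 passed an unadjusted p, with a median of 0.51 (0.61 with the segment, 0.53 without both libraries that stood apart). Apob, Rbp2, Fabp2, Vil1, Fabp1 and Dgat1 rose, with calls that held in 31, 30, 28, 21, 17 and 15 of 34 alternatives. Apob, the scaffold of chylomicrons, lay between 33883 and 137959 normalised counts (median 96938) in the Muc2-rich and between 23499 and 87484 (median 38233) in the Muc2-poor tumours, with a slope of 0.55 ± 0.10 (limma adjusted p = 0.0127). The Apob call was lost without dwba2.2d 9, 6 or 1 (adjusted p from 0.0503 to 0.055). Rbp2, a retinol carrier, lay between 29878 and 137829 normalised counts (median 92849.7) in the Muc2-rich and between 9198 and 96275 (median 36415) in the Muc2-poor tumours, with a slope of 0.68 ± 0.13 (limma adjusted p = 0.0189). Alpi, the brush border phosphatase, lay between 5025 and 218978 normalised counts (median 73651) in the Muc2-rich and between 28268 and 119191 (median 59401) in the Muc2-poor tumours, a log2 fold change of -0.25 ± 0.40, whose sign changed in 8 of 35 alternatives. Apoa4 and Apoa1, 2 of the most abundant lipid carriers, had 0.59 ± 0.36 and 0.56 ± 0.31, with the lowest Muc2-rich values, 75824 and 56540, in dwba2.2d 10.

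The other secretory lineages gave a mixed picture. Of 26 Paneth cell genes 24 had a positive log2 fold change, but only 3 passed an unadjusted p and none rose or fell (median 0.70, 0.42 with the segment, 0.53 without both libraries that stood apart). The median was 1.24 in the male mouse alone and -0.15 in the female mouse alone. The difference between mice was not called for any gene (interaction of group and mouse, limma, 0 genes at adjusted p under 0.05 and 345 at an unadjusted p under 0.05). Lyz1, lysozyme of Paneth cells, lay between 17398 and 59434 normalised counts (median 35701) in the Muc2-rich and between 7278 and 110905 (median 30323) in the Muc2-poor tumours, and Mmp7 had a log2 fold change of 0.05 ± 0.34. Enteroendocrine genes split evenly, 14 of 28 positive with a median of 0.01. Their median was -0.08 with libraries scaled to the same sum and -0.14 with Rn18s left out of that sum. The medians of all genes were then -0.10 and -0.15. After quantile normalisation the enteroendocrine median was -0.04 and that of all genes -0.03. Chga, a granule protein of these cells, lay between 554 and 2644 normalised counts (median 1036) in the Muc2-rich and between 433 and 2029 (median 914) in the Muc2-poor tumours, and its highest value, 2644, was in dwaj1.3a 5. Tuft cell genes had 8 of 21 positive and a median of -0.20 (-0.05 with the segment), which was 0.37 among SI10 tumours alone and -0.42 among SI20 tumours alone. Of the tuft genes Trpm5, a cation channel, had a log2 fold change of 0.94 ± 0.34, Avil 1.16 ± 0.70 and Dclk1 -0.10 ± 0.37, and none passed.

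Stem, WNT and growth lists had no member that rose or fell over the 23 tumours. Crypt stem cell genes had 18 of 29 positive and a median of 0.13 (-0.10 with the segment). Their median was -0.03 with equal library sums without Rn18s, where that of all genes was -0.15. WNT antagonists and feedback targets had 11 of 28 positive and a median of -0.16 (-0.28 with the segment), and replication and mitosis genes 26 of 50 and 0.0011 (-0.09 with the segment). Lgr5, the stem cell receptor, lay between 115 and 3081 normalised counts (median 942) in the Muc2-rich and between 177 and 1154 (median 525) in the Muc2-poor tumours. Olfm4, of the stem cell list, had a log2 fold change of 2.91. Under 35 alternatives it lay between 0.87 and 3.62, and it was called in 0 of them. Notum, a secreted WNT antagonist of Apc-mutant cells, lay between 1665 and 7676 normalised counts (median 5120.3) in the Muc2-rich and between 3158 and 14719.5 (median 4278) in the Muc2-poor tumours, with a log2 fold change of -0.14 ± 0.34. Mki67, a proliferation marker, had 0.07 ± 0.32, and neither differed beyond its standard error. Genes of MYC and ribosome biogenesis leaned the other way, with 8 of 50 positive and a median of -0.17 (-0.19 with the segment, -0.19 without both libraries that stood apart). Myc itself lay between 1464 and 3829 normalised counts (median 1792) in the Muc2-rich and between 1407 and 4877 (median 2864) in the Muc2-poor tumours, a log2 fold change of -0.47 ± 0.19 that did not pass, and its slope was -0.29 ± 0.08 (limma adjusted p = 0.0829). Of 47 ribosomal protein genes 1 had a positive log2 fold change, with a small median of -0.16 that was 0.01 among SI20 tumours alone.

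Gastric genes had the largest list median, but not a stable one. Genes of the stomach's pyloric glands are largely silent in normal small bowel. Of 17 tested members 14 were positive and 8 passed an unadjusted p, with a median of 2.09 (1.27 with the segment, 2.40 without both libraries that stood apart). None rose in the slope fit. Muc5ac, the gel-forming mucin of the stomach, lay between 22 and 6295 normalised counts (median 929) in the Muc2-rich and between 0 and 727 (median 188) in the Muc2-poor tumours, and 6 Muc2-rich tumours exceeded all Muc2-poor ones while 1, at 22, was below their median. Its log2 fold change was 2.68 ± 1.17 and its slope 0.79 ± 0.62 (limma adjusted p = 0.519). Gkn3, a gastrokine, lay between 1685 and 24984 normalised counts (median 5326) in the Muc2-rich and between 161 and 18402 (median 995) in the Muc2-poor tumours. Tff1, a gastric trefoil peptide, lay between 9.44 and 1700 normalised counts (median 429.8) in the Muc2-rich and between 0 and 7625 (median 31) in the Muc2-poor tumours, so that its highest value was in a Muc2-poor tumour. The fetal-like list, genes of regenerating epithelium, had 28 of 34 positive and a median of 0.65 (0.29 with the segment, 0.95 without both libraries that stood apart). Its member Anxa1, an annexin, had a log2 fold change of 0.44 ± 0.39. Sprr2a2, of a family of near-identical cornified envelope genes that may share reads, had 0.98 ± 0.38.

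Glycolysis genes were positive in 26 of 28 cases, 11 at an unadjusted p, with a median of 0.37 (0.28 with the segment, 0.45 without both libraries that stood apart). Pfkp, a phosphofructokinase, lay between 5574 and 10578 normalised counts (median 8777) in the Muc2-rich and between 3417 and 7708 (median 5022) in the Muc2-poor tumours and rose with a slope of 0.37 ± 0.09 (limma adjusted p = 0.0445), a call that held in 15 of 34 alternatives. Gapdh had a log2 fold change of 0.45 ± 0.17. Oxidative phosphorylation genes had a median of 0.06, which changed sign when all libraries were scaled to an equal sum. That scaling moved the median of all genes to -0.10, and to -0.15 when Rn18s was left out of the sum, so the list median of -0.03 under it lay above that of all genes. The medians of the goblet, glycosylation, endoplasmic reticulum, enterocyte and glycolysis lists stayed positive under both scalings and those of the MYC, MHC class II and T cell lists negative.

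Of the stromal and immune lists, the fibroblast, endothelial, MHC class II and T cell medians moved toward 0 with the segment as a covariate. Of 32 fibroblast genes 24 were positive with a median of 0.50, which was 0.03 with the segment as a covariate. Sparc, a matrix protein, lay between 737 and 3666 normalised counts (median 2014) in the Muc2-rich and between 348 and 4962 (median 1262) in the Muc2-poor tumours. All 10 tested MHC class II genes were negative, with a median of -0.65, but it was -0.18 with the segment and 0.24 among SI10 tumours alone. Cd74, their invariant chain, lay between 1448 and 9184 normalised counts (median 3650.1) in the Muc2-rich and between 1132 and 16299.5 (median 7248) in the Muc2-poor tumours. T cell genes had 4 of 25 positive and a median of -0.48 (-0.20 with the segment, -0.71 without both libraries that stood apart). The T cell median was 0.35 among SI10 tumours alone and -0.70 among SI20 tumours alone. It was 0.08 when the tumours were ranked by the other goblet genes instead of Muc2. Gzma, a granzyme, lay between 411 and 4709 normalised counts (median 855) in the Muc2-rich tumours. In the Muc2-poor tumours it lay between 493 and 3839 (median 1197). Endothelial genes had a median of 0.52 (0.11 with the segment), smooth muscle genes -0.19 (-0.53), B and plasma cell genes -0.21 (-0.23), and macrophage and neutrophil genes -0.02 (-0.12). From all these lists a single gene, Laptm5, a lysosomal protein of leukocytes, fell: it lay between 328 and 974 normalised counts (median 573) in the Muc2-rich and between 759 and 1822 (median 1138) in the Muc2-poor tumours, with a slope of -0.41 ± 0.10 (limma adjusted p = 0.0488), but in only 9 of 34 alternatives. The part of stromal and immune cells in the goblet result was not tested.

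The remaining lists held no further call over the 23 tumours, as Guca2a and Fabp1, described above, are also in the list of proximal and distal genes. Genes of MAPK output had 25 of 34 positive and a median of 0.25 (-0.05 with the segment), interferon response and MHC class I genes 20 of 38 and 0.02 (0.22 with the segment), and genes of the proximal or distal small bowel 13 of 21 and 0.19 (0.17 with the segment). Of the latter Cybrd1, a duodenal ferric reductase, lay between 1262 and 203187 normalised counts (median 7904) in the Muc2-rich and between 10009.6 and 140275 (median 41942) in the Muc2-poor tumours. Brunner gland and pancreas genes had 2 tested members, both positive.

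**Figure D3:**
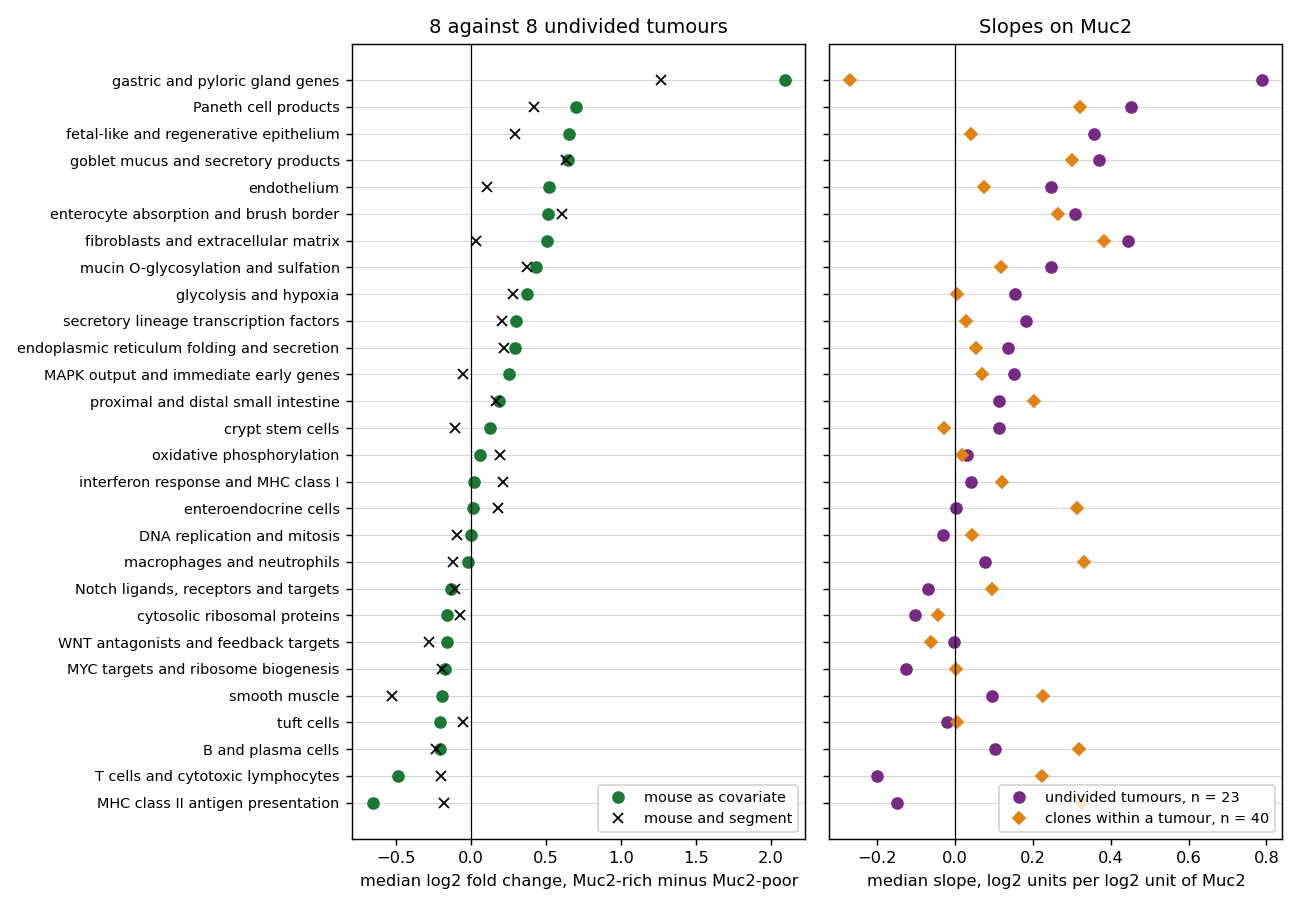
Medians over gene lists with at least 5 tested members. Left, median log2 fold change between the Muc2 groups with mouse (green points) or mouse and segment (crosses) as covariates; right, median slope on log2 Muc2 over 23 undivided tumours (purple) and between clones of a tumour (orange diamonds), in log2 units per log2 unit. The goblet point keeps its place with the segment (0.64 and 0.63), the fibroblast and fetal-like points move toward 0, and the gastric list is positive on the left and negative between clones (-0.27).

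Among the 12 genes whose pattern was most like that of Muc2 there were few goblet genes. By Pearson's r of log2 values over 23 tumours after the mean of each mouse was removed, the closest were Cyp4f40 (0.84), Grin2d (0.84), Fam83f (0.82), Gp1bb (0.81), B3gnt5 (0.81), Adamts15 (0.81) and Zzef1 (0.79), followed by Sowaha, Gm17491, Aadac, Tstd1 and Plbd1. Spink4, at 0.782, lay just below Plbd1 (0.784), the last of the 12, so the share of goblet genes depends on that limit. Cyp4f40, of a cytochrome P450 family that oxidises fatty acids, lay between 411 and 1136 normalised counts (median 709.5) in the Muc2-rich and between 117 and 737 (median 278) in the Muc2-poor tumours, with a slope of 0.68 ± 0.10 (limma adjusted p = 0.00588, the smallest of this fit). It has close relatives on the same chromosome, such as Cyp4f16, with which it may share reads. Adamts15, a secreted metalloprotease, lay between 96.8 and 369 normalised counts (median 242) in the Muc2-rich and between 12.4 and 203 (median 48.9) in the Muc2-poor tumours, with a slope of 1.04 ± 0.16. Gp1bb lies within the span of Septin5 on chromosome 16 and the same strand, so their reads may be shared and both are uncertain. The most opposite were Zfp141 (-0.82), Thumpd2 (-0.81), Gpat4 (-0.79) and Mtpap (-0.79), then Rnf130, Nfya, Ssbp3, Dis3l, Dnajc27, Parn, Susd1 and Phf14. Zfp141, a zinc finger protein, lay between 112 and 221 normalised counts (median 171) in the Muc2-rich and between 217 and 353 (median 274) in the Muc2-poor tumours and fell with a slope of -0.36 ± 0.07 (limma adjusted p = 0.0109). These genes were picked for their likeness, so the values are a description.

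The 20 divided tumours allowed the same question within a tumour, in libraries the ranking had not used. Per the paper, such tumours were dissected into a major and a minor clone, and secretory genes were enriched in major clones. The fit below has no term for that contrast, and the block on tumour does not remove it. Its part in the slopes on Muc2 was not tested. Muc2 in the 40 clones ran from 646, in clone b of dwaj1.3a 19, to 43642, with a median of 18377. The log2 difference between clones a and b ran from 0.04 to 2.81, with a median of 0.88, and exceeded 1 in 8 of 20 tumours. In the widest pair one clone held 7.01-fold the Muc2 of the other. The 2 clones of dwba2.2d 22 were labelled with different segments. With tumour as a block, which removes mouse and, in the other 19 tumours, segment, 44 of 16427 genes rose with Muc2 and 3 fell (0.268% and 0.0183%, limma adjusted p under 0.05), and 1270 rose at an unadjusted p under 0.05 (7.73%). The rising count was 6, 11, 15 and 24 without dwaj1.3a 28, dwaj1.3a 27, dwba2.2d 22 and dwba2.2d 26, and the falling count 0 without any of the first 3. Without dwaj1.3a 19, which holds the lowest clone, 38 genes rose, of which 17 were among the 44.

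Mucus genes were among those that rose between clones. Fcgbp lay higher in the clone with more Muc2 in 18 of 20 tumours, with a slope of 0.61 ± 0.09 (SE, limma adjusted p = 0.00496). The membrane mucin Muc3 was higher in 17 of 20, with a slope of 0.56 ± 0.08 (limma adjusted p = 0.00496). The annotation also holds Muc3a, whose sequence is near-identical, so reads of the 2 genes may be split and both are uncertain. The calls of Fcgbp and Muc3 held under all 29 alternatives. Muc4, another membrane mucin, rose with 0.50 ± 0.10 (limma adjusted p = 0.0327), and Clca3b, of the Clca family, with 0.86 ± 0.18 (limma adjusted p = 0.0353). Both these calls were lost without dwba2.2d 22 or 26 or dwaj1.3a 19, 27 or 28, that of Muc4 also without dwaj1.3a 25, 29 or 31 and that of Clca3b without dwba2.2d 29 (adjusted p from 0.0535 to 0.17). The goblet list as a whole had 28 of 32 members with a positive slope, a median of 0.30, and 15 at an unadjusted p under 0.05. This was not particular to goblet genes. Positive slopes at that threshold were held by 20 of 43 enterocyte, 12 of 27 enteroendocrine and 13 of 31 fibroblast genes. The same held for 19 of 28 macrophage and neutrophil and 8 of 9 MHC class II genes. Among 21 tuft cell and 50 replication genes there were 0, and the share over all genes was 7.73%. The median over all genes was near 0. Spink4 and Klk1, which led in undivided tumours, had 0.39 ± 0.12 and 0.45 ± 0.14 here and did not pass. Atoh1 had 0.48 ± 0.12 (limma adjusted p = 0.0949).

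Enterocyte and enteroendocrine genes rose beside them. Apob was higher in 15 of 20 clones with more Muc2, with a slope of 0.44 ± 0.07 (limma adjusted p = 0.00855, 0.0565 without dwaj1.3a 28). Mgam, the brush border maltase, rose with 0.63 ± 0.11 (limma adjusted p = 0.0161), a call lost without dwaj1.3a 19, 27 or 28 (0.0551 to 0.0657). The granins Chga and Chgb rose with 0.68 ± 0.14 and 0.69 ± 0.14 (limma adjusted p = 0.0334 and 0.0269), each higher in 15 of 20 tumours. Without dwaj1.3a 19 the adjusted p were 0.111 and 0.0976, and both calls were also lost without dwaj1.3a 27 or 28 or dwba2.2d 22 or 26, and Chga without dwaj1.3a 25. In undivided tumours the slopes of Chga and Chgb were 0.12 ± 0.15 and 0.16 ± 0.13. Olfm4, a stem cell and Notch target gene, had the steepest slope of the genes that rose, 1.74 ± 0.38 (limma adjusted p = 0.0479), but was higher in 11 of 20 tumours only. Its slope was 1.14 without dwaj1.3a 19 (adjusted p = 0.159), and the call was lost without any of 11 other tumours (dwba2.2d 20, 22, 26, 27, 28 or 29 or dwaj1.3a 23, 25, 26, 27 or 28). Dmbt1, a secreted scavenger protein that binds bacteria, rose with 0.96 ± 0.21 (limma adjusted p = 0.0497), in only 6 of 29 alternatives.

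Some immune genes also rose between clones, while no gene of the fibroblast, smooth muscle or endothelial lists passed. Of 31 fibroblast genes 31 had a positive slope, as had 28 of 28 macrophage and neutrophil genes, with medians of 0.38 and 0.33. S100a8 and Cxcr2, both of neutrophils, rose with 0.82 ± 0.15 and 1.02 ± 0.19 (limma adjusted p = 0.0211 and 0.0223), and both calls were lost without dwaj1.3a 19, 27 or 28. Cd74 rose with 0.53 ± 0.11 (limma adjusted p = 0.0269), although its slope over undivided tumours was -0.23 ± 0.21, and the call was lost without dwba2.2d 22 or dwaj1.3a 19, 27 or 28 (0.063 to 0.0746). Trdc, of gamma delta T cells, rose with 0.76 ± 0.16 (limma adjusted p = 0.0334), a call lost without dwaj1.3a 19, 25, 27 or 28 or dwba2.2d 22 or 26 (0.0574 to 0.113). The gastric list had 4 of 17 positive, with a median of -0.27, on the other side of 0 from undivided tumours.

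Mitochondrially encoded genes formed another group: mt-Nd1, mt-Nd2, mt-Nd4, mt-Nd4l, mt-Nd5, mt-Co1, mt-Cytb and mt-Atp6 rose, with slopes from 0.40 to 0.59, each higher in 14 of 20 tumours. The calls of mt-Atp6 and mt-Co1 held in 13 and 18 of 29 alternatives, and those of the other 6 in 26 or more. The nuclear copies of mitochondrial sequence Gm28661, Gm13340, Gm10925 and Gm13341 rose too, the last in 15 of 29 alternatives, and reads cannot be told apart with certainty between the copies. The mitochondrial share of a library was higher in the clone with more Muc2 in 13 of 20 tumours and the estimated reads in 11, and their part in the slopes was not tested. Pcsk5, a proprotein convertase, and Gbf1, a regulator of Golgi traffic, had the smallest adjusted p of the clone fit, with slopes of 0.50 ± 0.07 and 0.36 ± 0.05 (limma adjusted p = 0.00131 and 0.00496). The 3 genes that fell were Slc44a5 (-1.38 ± 0.28), Alyref2 (-0.35 ± 0.07) and Magix (-0.88 ± 0.18).

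**Figure D4:**
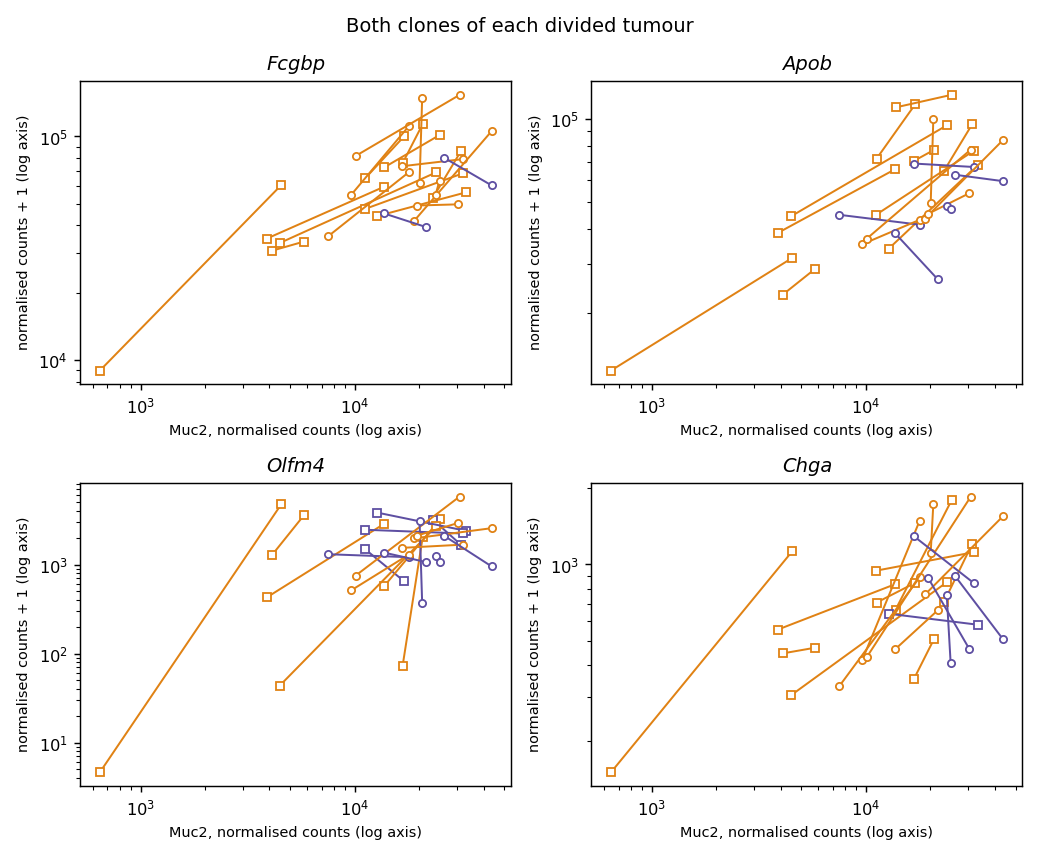
Both clones of each of 20 divided tumours, joined by a line, for Fcgbp, Apob, Olfm4 and Chga, in normalised counts + 1 against Muc2 on log axes. Squares are the male and circles the female mouse, and orange lines mark tumours where the clone with more Muc2 also had more of the gene. Orange lines are 18 of 20 for Fcgbp, 15 for Apob, 11 for Olfm4 and 15 for Chga, and the pair at the far left, dwaj1.3a 19, reaches lowest in each plot.

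Genes that rose over the 23 undivided tumours mostly kept their sign between clones. Of the 118, 117 were tested there: 111 had a positive slope, against 50% of all genes tested between clones, and 56 had one at an unadjusted p under 0.05, against 7.73% of all genes. The median slope was 0.18. Of the 18 that fell, 12 were negative in clones. In both fits 7 genes rose, which is 5.93% of the 118 and 15.9% of the 44: Apob, Lrba, Lrp1, Fcgbp, Zzef1, Fat1 and Syna. Lrp1, a large endocytic receptor, had slopes of 0.41 ± 0.10 in undivided tumours and 0.47 ± 0.08 between clones, and Fat1, a giant cadherin, 0.47 ± 0.11 and 0.44 ± 0.09. Zzef1 had 0.41 ± 0.07 and 0.34 ± 0.07, and Lrba, a protein of vesicle traffic, 0.21 ± 0.04 and 0.25 ± 0.05. Syna, a placental fusion protein of retroviral origin, had 0.49 ± 0.12 and 0.79 ± 0.17. Over undivided tumours the calls of Fat1, Lrp1 and Syna held in only 9, 10 and 13 of 34 alternatives and those of Zzef1, Apob, Fcgbp and Lrba in 34, 31, 30 and 29. Between clones those of Syna, Lrba, Fat1, Zzef1 and Apob held in 10, 11, 21, 25 and 28 of 29, and those of Lrp1 and Fcgbp in all 29. Of the 44 genes that rose between clones, 41 had a positive slope over undivided tumours, against 50.1% of all genes. Over 16206 genes Spearman's rho of the slopes was 0.33, as a description across genes, which are not independent. Kdelr3, by contrast, had 0.77 ± 0.14 in undivided tumours and -0.06 ± 0.06 between clones. The difference between the slopes of undivided tumours and clones was tested for each gene in 1 model over all 63 libraries, and 0 of 16488 genes were called (limma, smallest adjusted p 0.164, 1179 genes at an unadjusted p under 0.05). A call in one fit and not in the other therefore does not show that a gene behaved differently.

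**Figure D5:**
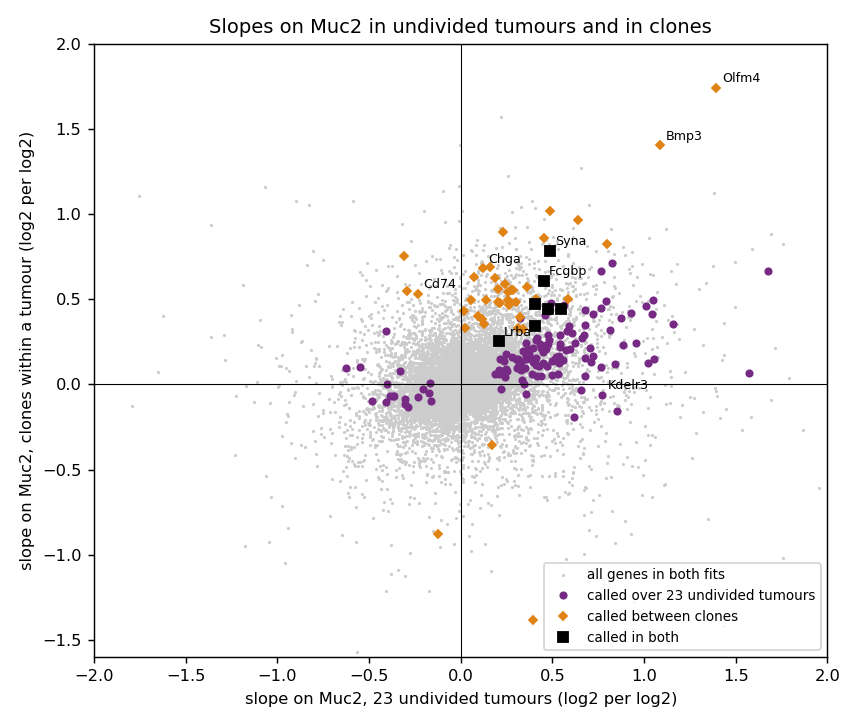
Slope on log2 Muc2 of each gene over 23 undivided tumours (horizontal) and between clones of a tumour (vertical), in log2 units per log2 unit. Purple points passed over undivided tumours, orange diamonds between clones and black squares in both, and 7 genes lie outside the axes. Most purple points lie right of and above 0, the 7 black squares share the upper right part, and Olfm4 and Bmp3 are the highest of the orange diamonds.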

How the data were processed

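Per the study's methods, total RNA was extracted from dissected tumours, and stranded mRNA libraries made from it were sequenced. The tumours used here came from 2 mice. Per the labels and the study's methods the authors trimmed reads with Trimmomatic 0.39, checked them with FastQC 0.11.9, STAR 2.7.7a and Picard 2.27.3, quantified them with Salmon 1.9.0 against a GRCm39 annotation and normalised them with DESeq2. The deposited signal values are those normalised counts, which are not whole numbers, so a count test was not applied. Estimated reads are the sum of a library divided by the value of its lowest step.

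From the deposited values (24766 genes, 63 columns), log2(value + 1) was tested with limma 3.58.1 in R 4.3.3 (empirical Bayes with trend, two-sided, Benjamini-Hochberg adjusted p under 0.05) in genes whose mean reached 10. The 8 Muc2-rich and 8 Muc2-poor tumours were compared with mouse as covariate, slopes on log2 Muc2 were fitted over 23 undivided tumours and between clones with tumour as a block, and Muc2 was left out of calls. Library measures were compared by an exact permutation test within mouse (4410 reassignments) and labels by Fisher's exact test. The groups and the 29 gene lists were chosen with earlier results of these data known, and no list was tested as a set. Named genes were, by rule, the regulators and markers listed in the design, the 12 genes most like and most unlike Muc2 and, in lists without a call between the groups, the 2 members with the highest mean. Other named genes passed a slope fit, were in a list and chosen after their values were seen, or did not overlap between the groups. Scripts were tested on simulated data. Gene positions are from Gencode M39 on GRCm39, and promoter windows from RefSeq on GRCm38.p6. The summed marker level of B and plasma cells is not reported here.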

Additional observations from a re-analysis of the deposited data

Results flagged for a closer look

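In each group of 8 the highest and lowest tumour were compared with their neighbours by Dixon's test for 1 outlying value, over Muc2, the library measures and the genes named with group values. Of 152 groups of values 20 passed, or 13.2%, where chance gives about 1 in 20, and genes of 1 tumour are not independent.

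Muc2 itself was 30379 in dwba2.2d 9, the other Muc2-rich tumours lying between 13118 and 15799.

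In dwba2.2d 10, a Muc2-rich tumour, 9 genes lay far below the other 7: Tff3 at 6693, Gcnt4 at 761, Sec24d at 2820, Apob at 33883, Rbp2 at 29879, Apoa4 at 75824, Apoa1 at 56540.3, Dclk1 at 50.2 and Sprr2a2 at 373394 normalised counts. Muc2 was 13877 in this tumour.

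In dwaj1.3a 5, also Muc2-rich, Chga at 2644 and Gzma at 4709 lay far above and Hes1 at 992, Avil at 801 and Top2a at 1537 far below the other 7. Its mitochondrial share of 5.30% was the highest of the group, where the others lay between 2.92% and 3.57%.

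In dwaj1.3a 8, Pcna at 7702 lay above the other Muc2-rich tumours (5049 to 6120). Among Muc2-poor tumours dwaj1.3a 15 had Prom1 at 4699 and was listed at 0 for Muc5ac and Mfsd2b.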

How the results depend on the processing

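Between the groups, 225 genes were called higher and 64 lower with the top 6 against the bottom 6 tumours, 118 and 18 by the slope over 23 tumours, and 1581 and 947 when 6 other goblet genes ranked the tumours. The last 2 counts can include the 6 ranking genes. Under every other setting tried, leaving out each tumour included (0 to 0), 0 genes were called. The slope over 23 tumours was an alternative to the group comparison, whereas its use as a result of its own, the alternatives to it and the settings that leave out a pair of libraries, scale without Rn18s or use 1 segment were chosen after seeing the data. Rising and falling genes over 23 tumours were 61 and 8 with no filter, 36 and 6 with libraries scaled to the same sum, 64 and 8 without the trend, 58 and 3 with no covariate, 235 and 53 with mouse and segment, and 234 and 51 without dwba2.2d 10 and dwaj1.3a 5. Rising genes were 75 after quantile normalisation and 49 with the sum without Rn18s. Leaving out each tumour gave 14 to 691 rising and 1 to 223 falling genes. Between clones 29 rose with the same sum and 5 fell with the sum without Rn18s, and leaving out each tumour gave 6 to 66 and 0 to 4. Clones a and b are paired by their tumour. Without that replicate block 3211 genes rose and 2486 fell, and the slope of Magix turned to 0.014. Undivided tumours with the same number in the 2 mice are different tumours, so no block was fitted there. The causes of these moves were not tested. Of single-gene values under alternatives, 189 of 3987 log2 fold changes between the groups, none of them called, changed sign, and 451 of 1598 slopes over 23 tumours and 325 of 1361 clone slopes kept their sign but no longer passed. Genes near the minimum of 10 normalised counts and the 2 animals limit what can be detected.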
